A study of Mus musculus with 27 samples.

Results

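The cortex of Bcl11a-CKO mouse embryos was followed from embryonic day (E) 13.5 to E15.5, an age comparison within 1 mutant genotype that took in 6 of the 27 RNA-seq libraries of the study. Members were chosen by their labels alone: all embryonic libraries labelled Bcl11a-CKO, 3 at each age, and all genes in the table. The animals were C57BL/6 and carried Emx1-Cre with Bcl11aFlox/Flox, so that Cre made under the Emx1 promoter, which is active in the progenitors of the dorsal telencephalon and in the cells they give rise to, recombined both floxed copies of Bcl11a. Interneurons, blood vessels, microglia and meninges come from other lineages and keep the gene. Control cortex was wildtype, with no Cre and no floxed allele named, and Bcl11ab-DCKO cortex carried Emx1-Cre, Bcl11aFlox/Flox and Bcl11bFlox/Flox. Both served as comparisons at the same ages. Total RNA came from dissected, flash-frozen cortex.

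Bcl11a and Bcl11b encode zinc finger transcription factors that can recruit the NuRD and BAF chromatin complexes, and both are expressed in young cortical projection neurons. In the days compared here, radial glia (the apical progenitors that line the ventricle) and the intermediate progenitors they produce stop making deep-layer neurons and turn to upper-layer neurons. Newborn neurons leave the cell cycle, migrate outward, extend axons and begin to assemble synapses, while interneurons enter from the ventral telencephalon.

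At E15.5, 2 of the 3 Bcl11a-CKO libraries have the same number in their titles, one with an R and the other with an L. They were summed as 1 unit, since they may be the 2 sides of 1 brain, and 1 pair of control libraries at E15.5 was summed for the same reason, so the mutant comparison rests on 3 units at E13.5 and 2 at E15.5. Values are listed in the order of unit 1, 2 and 3 at E13.5 and unit 1 and 2 at E15.5, as CPM (counts scaled to a common library size with edgeR's TMM factors), and unit 2 at E15.5 is the summed pair. No label links a library to its animal. The p-values therefore reflect how samples spread, and part of that spread may be technical. With 2 mutant units at E15.5, the spread was estimated over all 16 embryonic units, control and Bcl11ab-DCKO included. The units held 5620084, 7220708 and 5309024 counts at E13.5 and 4359817 and 9707052 at E15.5. Mitochondrial genes took 1.97 to 2.23% of the counts in these libraries. Xist, the RNA of the inactive X chromosome, was high and Y-linked genes were at 0 in E13.5 unit 3 and E15.5 unit 1, with the reverse in the other units, so both patterns stood at both ages.

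E13.5 unit 1 stood apart from the other E13.5 units before any gene was tested. On the first principal component of all 16 embryonic units, which held 58.3% of the variance and separated the ages, it lay at -19.95, unit 2 at -45.56 and unit 3 at -58.02, against 67.73 and 64.90 for the E15.5 units. Among genes called between the ages, it was the E13.5 unit nearest to E15.5 in 5138 (71.4%), against 1183 for unit 2 and 874 for unit 3. Its title ends in 1-2, while those of the other 2 end in 1-8, and the labels do not say what the endings mean. The control and Bcl11ab-DCKO units with the ending 1-2 lay at -48.58 and -50.76, within the range of their own E13.5 groups. With a term for the ending, 7401 genes were called between the ages in Bcl11a-CKO, and 7477 without the libraries that carry it. Why unit 1 stood apart was not tested. Counts without unit 1 are therefore given beside each list.

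The targeted gene remained well detected in every Bcl11a-CKO unit. Bcl11a (chromosome 11, 24078056 to 24174123, plus strand, mm10) stood at 372, 325 and 261 CPM at E13.5 and 563 and 576 CPM at E15.5. Control units held 428, 525 and 509 CPM at E13.5 and 747 and 748 CPM at E15.5, above the mutant units of the same age in each case. Counts are per gene and the deleted exons are not stated, so reads outside the deleted part are still counted and this level is no measure of functional Bcl11a. Within the mutant the gene rose with age (log2 fold change 0.84 ± 0.12, adjusted p = 5.87e-05). Its paralog Bcl11b (chromosome 12, 107910403 to 108003602, minus strand), which was not floxed in these animals, stood at 385.5, 257 and 227 CPM at E13.5 and 349 and 374 CPM at E15.5, with overlapping ages (log2 fold change 0.32 ± 0.26, adjusted p = 0.328).

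Nearly as many genes rose as fell. Of 14947 genes tested, 3553 rose (23.8%) and 3642 fell (24.4%) from E13.5 to E15.5 in Bcl11a-CKO cortex, 48.1% in all at an adjusted p under 0.05 (edgeR's quasi-likelihood test). Of these, 1529 rose and 1302 fell by more than 2-fold, and 187 rose and 124 fell by more than 8-fold. The median log2 fold change over all tested genes was -0.016, and ± gives the standard error of the fitted value wherever it follows a log2 fold change. Without unit 1, 3903 rose and 3710 fell, and 6818 of the 7195 genes were called in the same direction. Units of the 2 ages did not overlap, whatever the test, for 32.2% of tested genes in the higher and 32.9% in the lower direction. They did not overlap for any gene named here as rising or falling, apart from Mfge8. Genes that share exonic bases with another gene can have counts that mix both, since the counting is not given in the sources used here, which makes the values of these named genes uncertain: Aldh1l1, Bcl11a, Ccbe1, Ccnd2, Cdc20, Chd4, Col3a1, Ctgf, Cux1, Dll1, Ebf2, Ebf3, Eef1a1, Eomes, Ephb1, Fam160a1, Fgfr3, Galnt14, Gins2, Gphn, Gpr17, Gria2, Grin1, Grin2b, Hes5, Hk1, Hmga2, Hopx, Hs3st2, Hs3st4, Id4, Igf2bp1, Igf2bp3, Jun, Lef1, Lhx6, Lrrtm2, Necab1, Neurod1, Nfia, Nfix, Notch1, Notch3, Nrp1, Nt5dc2, Olig1, P2ry12, Pfkm, Pfkp, Pkm, Plxna1, Plxna4, Reln, Rian, Rpl4, Rspo3, Ryr3, Slc2a1, Smarcc1, Sox5, Tbx18, Tnc, Tuba1a, Ube2c, Wnt7b and Xist.

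Among called genes with at least 5 CPM in the higher group, at least 10 counts in the lower group and no overlap of units, Hs3st4 and Opcml led the 12 with the largest rise. Hs3st4, a heparan sulfate sulfotransferase made by layer 6 neurons, was at 3.85, 1.901 and 0.548 CPM at E13.5 and 65.5 and 78.5 CPM at E15.5 (log2 fold change 5.09 ± 0.44, adjusted p = 3.08e-06). Opcml, a cell adhesion protein anchored in the neuronal membrane, was at 3.33, 2.31 and 0.913 CPM at E13.5 and 84.99 and 60.3 CPM at E15.5 (log2 fold change 5.02 ± 0.35, adjusted p = 3.13e-07). The matrix glycoprotein tenascin C, encoded by Tnc and made by radial glia, was at 16.99, 7.88 and 5.48 CPM at E13.5 and 249.7 and 266 CPM at E15.5 (log2 fold change 4.68 ± 0.33, adjusted p = 3.13e-07). Each of these genes was low in all E13.5 units and highest among them in unit 1, yet no E13.5 unit reached an E15.5 unit. The other genes of the leading 12 were Sla, Stac2, Ccbe1, Fam160a1, Caln1, Hs3st2, Spock1, Npas1 and Necab1, with log2 fold changes between 4.64 and 4.98. Npas1, a transcription factor of interneurons, was at 2.102, 0.815 and 1.096 CPM at E13.5 and 37.03 and 33.3 CPM at E15.5.

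Under the same conditions, Hbb-y and Col1a1 led the 12 genes with the largest fall; some genes with fewer counts at E15.5 had a larger fitted fall. Hbb-y, an embryonic beta globin, was at 661, 541 and 961 CPM at E13.5 and 4.27 and 5.68 CPM at E15.5 (log2 fold change -7.12 ± 0.64, adjusted p = 1.72e-06), and the embryonic alpha globin gene Hba-x fell beside it (log2 fold change -5.90 ± 0.61, adjusted p = 4.81e-06). Col1a1, Col1a2 and Col3a1, the fibrillar collagens of connective tissue, fell by 6.07, 4.65 and 5.36 on the log2 scale. Among progenitor genes, Dmrta1, a DM domain transcription factor of the early pallium, was at 16.99, 46.2 and 50.8 CPM at E13.5 and 1.19 and 1.07 CPM at E15.5 (log2 fold change -5.07 ± 0.52, adjusted p = 4.61e-06). Hmga2, a chromatin protein of young stem cells, was at 43.4, 84.3 and 134 CPM at E13.5 and 1.42 and 5.04 CPM at E15.5 (log2 fold change -4.54 ± 0.57, adjusted p = 2.21e-05). Lhx9, a LIM homeodomain factor, Neurog1, a proneural factor, and the retinoic acid binding protein gene Crabp2 fell by 4.42, 4.33 and 4.32. For Dmrta1, Hmga2 and Crabp2, unit 1 was the lowest of the E13.5 units and still lay far above both E15.5 units. Fndc3c1 and Colec12 complete the 12.

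**Figure D1:**
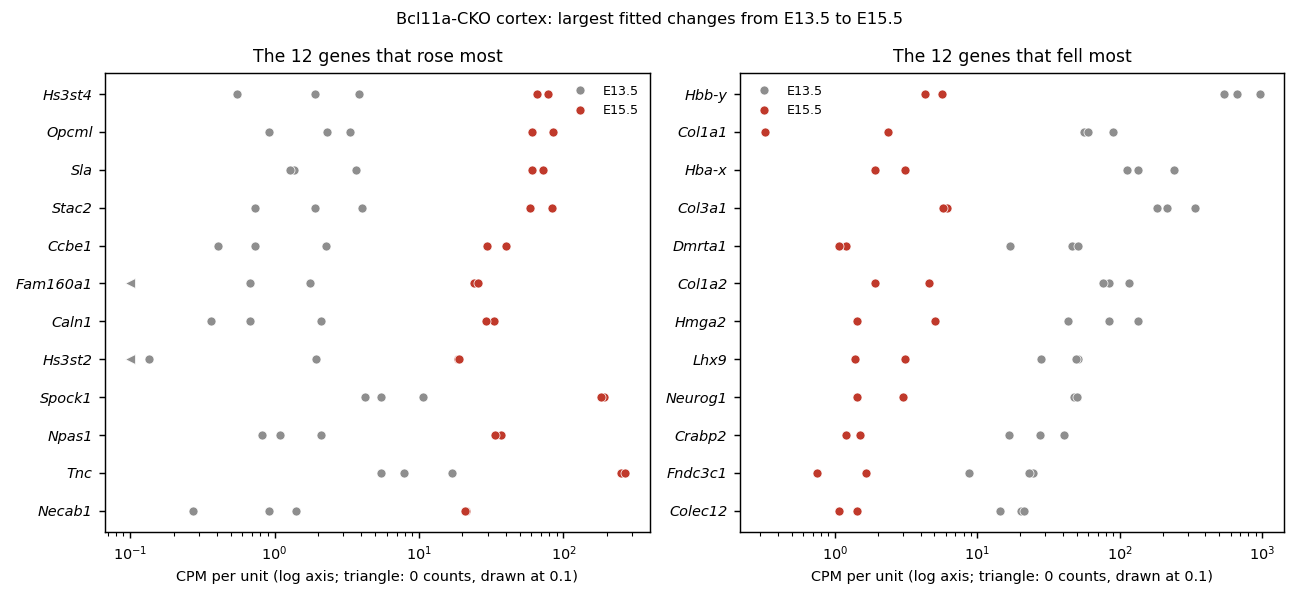
CPM of the 12 genes with the largest rise (left) and the 12 with the largest fall (right) in Bcl11a-CKO cortex, among called genes with at least 5 CPM in the higher and 10 counts in the lower group, on log axes, with 1 point per unit (gray, 3 E13.5 units; red, 2 E15.5 units; triangles, 0 counts). The ages do not overlap for any of the 24 genes, since the choice of genes asked for that; Hbb-y falls from 541 to 961 CPM down to 4.27 and 5.68 CPM.

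By absolute level, the 5 largest rises were those of Tuba1a, Tubb2b, Dpysl3, Nfix and Ttc28. Tuba1a, the main alpha tubulin of young neurons, was at 3177, 2327 and 2063 CPM at E13.5 and 5481 and 5135 CPM at E15.5 (log2 fold change 1.07 ± 0.15, adjusted p = 6.31e-05). Tubb2b, a neuronal beta tubulin, and Dpysl3, a collapsin response protein of growth cones, rose by 1.00 ± 0.12 and 1.23 ± 0.18 on the log2 scale. Nfix, a nuclear factor I protein that promotes differentiation of progenitors, was at 529.8, 321 and 317 CPM at E13.5 and 1347.5 and 1539 CPM at E15.5 (log2 fold change 1.89 ± 0.23, adjusted p = 1.55e-05), and Ttc28 also rose (log2 fold change 1.74 ± 0.20, adjusted p = 1.07e-05). The largest falls were those of Ccnd2, Mki67, Hbb-y, Eef1a1 and Pkm, of which Eef1a1 lost its call without E15.5 unit 2 and when only the 2 groups compared were fitted. Ccnd2, a cyclin D gene of cortical progenitors, was at 1367, 1635 and 1924 CPM at E13.5 and 424 and 386 CPM at E15.5 (log2 fold change -2.02 ± 0.13, adjusted p = 1.24e-07). Tubulins, Eef1a1 and Pkm have near-identical copies in the genome, and how reads shared between copies were counted is not given in the sources used here.

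Most genes of the progenitors fell. Of 21 tested radial glia genes, 5 rose and 15 fell (4 and 15 without unit 1), with a median log2 fold change of -0.96. Their summed level was 4455, 5172 and 5211 CPM at E13.5 and 3417 and 3386 CPM at E15.5, without overlap. Pax6, the homeodomain factor of dorsal radial glia, was at 185, 211 and 240.4 CPM at E13.5 and 75.02 and 73.4 CPM at E15.5 (log2 fold change -1.52 ± 0.13, adjusted p = 1.38e-06). Sox9, an SRY-box factor of neural stem cells, was at 142, 169 and 184 CPM at E13.5 and 56.7 and 56.7 CPM at E15.5 (log2 fold change -1.54 ± 0.10, adjusted p = 2.21e-07). The intermediate filament gene Nes was at 789, 939 and 1060.2 CPM at E13.5 and 338 and 331 CPM at E15.5 (log2 fold change -1.48 ± 0.12, adjusted p = 6.87e-07). The members that rose were Fabp7, Hopx, Mfge8, Ptprz1 and Tnc. Of these, Hopx lost its call in 4 of 14 alternatives (without unit 1, unit 2 or either E15.5 unit, adjusted p up to 0.0974), and Mfge8, whose units overlapped, in 6 of 14 (among them without unit 2, unit 3 or either E15.5 unit, adjusted p up to 0.239). Ptprz1, a receptor phosphatase of radial glia, was at 209.8, 199 and 220.1 CPM at E13.5 and 577 and 586 CPM at E15.5 (log2 fold change 1.47 ± 0.12, adjusted p = 6.87e-07). Fabp7, the brain lipid-binding protein, was at 172, 167 and 137 CPM at E13.5 and 260.2 and 239.9 CPM at E15.5 (log2 fold change 0.65 ± 0.17, adjusted p = 0.00615). Slc1a3, the glutamate transporter GLAST, was the member that did not pass the test, at 105, 94.1 and 98.99 CPM at E13.5 and 111 and 117 CPM at E15.5. In bulk tissue, fewer cells of a type and less RNA per cell cannot be told apart, here and in every list that follows.

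The Notch pathway keeps radial glia undifferentiated: ligands on newborn cells activate receptors on their neighbors, which switch on Hes and Hey repressors. Of 21 tested Notch pathway genes, 2 rose and 15 fell (2 and 14 without unit 1), with a median log2 fold change of -0.68. The ligand gene Dll1 was at 127, 186 and 176 CPM at E13.5 and 62.2 and 58.3 CPM at E15.5 (log2 fold change -1.44 ± 0.13, adjusted p = 1.56e-06). Among receptors, Notch3 was at 175, 214 and 219 CPM at E13.5 and 58.9 and 59.1 CPM at E15.5 (log2 fold change -1.78 ± 0.11, adjusted p = 1.07e-07), and Notch1 fell by 0.96 ± 0.09. The target Hes5 was at 44.1, 68.4 and 72.1 CPM at E13.5 and 11.4 and 13.7 CPM at E15.5 (log2 fold change -2.27 ± 0.21, adjusted p = 1.92e-06), and Hes1 and Hey1 fell by 1.98 ± 0.21 and 1.83 ± 0.15. The 2 exceptions were Jag2, a ligand gene, at 29.2, 20.6 and 18.4 CPM at E13.5 and 66.2 and 68.8 CPM at E15.5 (log2 fold change 1.57 ± 0.15, adjusted p = 3e-06), and Rfng, which encodes a glycosyltransferase that modifies the receptors (log2 fold change 0.78 ± 0.10, adjusted p = 1.75e-05). Summed over the list, the level was 1928, 2225 and 2175 CPM at E13.5 and 1195 and 1195 CPM at E15.5.

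Intermediate progenitors are the basal cells that divide once or a few times to give neurons. Of 14 tested intermediate progenitor genes, 2 rose and 11 fell (2 and 11 without unit 1), with a median log2 fold change of -1.22. Eomes, their defining T-box factor, was at 719, 706 and 694 CPM at E13.5 and 346 and 331 CPM at E15.5 (log2 fold change -1.06 ± 0.13, adjusted p = 1.66e-05). The proneural factor gene Neurog2 was at 447, 436 and 412 CPM at E13.5 and 169 and 167 CPM at E15.5 (log2 fold change -1.36 ± 0.07, adjusted p = 9.85e-08). Its relative Neurog1 was at 50.3, 48.1 and 50.4 CPM at E13.5 and 1.42 and 3.000 CPM at E15.5 (log2 fold change -4.33 ± 0.34, adjusted p = 6.56e-07). The antiproliferative gene Btg2, which marks neurogenic divisions, was at 132, 144 and 142 CPM at E13.5 and 41.8 and 47.9 CPM at E15.5 (log2 fold change -1.63 ± 0.10, adjusted p = 1.34e-07). For Eomes and Neurog2, unit 1 was the highest of the E13.5 units, and for Btg2 the lowest. Insm1 and Igfbpl1, which also mark newborn neurons, rose, and Insm1 was at 316, 296 and 269 CPM at E13.5 and 463 and 433 CPM at E15.5. Elavl2, an RNA-binding protein gene of newborn neurons, did not pass at 131, 131 and 125 CPM at E13.5 and 141 and 134 CPM at E15.5.

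Nearly all cell cycle genes fell. Of 24 tested G2 and mitosis genes, 0 rose and 24 fell (0 and 24 without unit 1), with a median log2 fold change of -1.70. Of 24 tested S phase genes, 0 rose and 22 fell (1 and 22 without unit 1), with a median log2 fold change of -1.40. Summed levels were 3720.0, 5303 and 5843 CPM at E13.5 and 1469 and 1498 CPM at E15.5 for G2 and mitosis and 2533, 3795 and 3919 CPM at E13.5 and 1420.0 and 1436 CPM at E15.5 for S phase, with unit 1 the lowest at E13.5 in both. Cdc20, which activates the anaphase-promoting complex, was at 139, 203 and 197 CPM at E13.5 and 47.7 and 49.6 CPM at E15.5 (log2 fold change -1.88 ± 0.14, adjusted p = 4.36e-07). The mitotic kinase gene Cdk1 was at 79.2, 95.3 and 102 CPM at E13.5 and 30.6 and 28.5 CPM at E15.5 (log2 fold change -1.65 ± 0.14, adjusted p = 1.26e-06). Mki67, the proliferation antigen, was at 736, 1075 and 1177.5 CPM at E13.5 and 267 and 288 CPM at E15.5 (log2 fold change -1.84 ± 0.16, adjusted p = 1.44e-06). Of the replication genes, Mcm5, a subunit of the replicative helicase, was at 171, 271 and 287 CPM at E13.5 and 76.9 and 71.6 CPM at E15.5 (log2 fold change -1.71 ± 0.19, adjusted p = 8.9e-06). Cdc6, which loads that helicase onto origins, was at 28.4, 41.5 and 52.97 CPM at E13.5 and 8.55 and 10.7 CPM at E15.5 (log2 fold change -2.06 ± 0.23, adjusted p = 9.79e-06). Gins2, another helicase factor, did not pass at 179, 171 and 153 CPM at E13.5 and 191 and 187 CPM at E15.5.

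Promoters of these genes, which fell together, were read from RefSeq (GRCm38.p6, 250 bases before to 50 after the start). Mitotic genes are known for CCAAT boxes, bound by NF-Y, and for the cell cycle genes homology region (CHR), read by the DREAM and B-MYB complexes, and S phase genes for E2F sites. The search covered both strands for CCAAT, for the CHR as TTTGAA or TTCGAA, and for E2F as TTTCCCGC, TTTCGCGC, TTTGCCGC or TTTGGCGC. Promoters were found for 20 of the 24 mitotic genes, 21 promoters in all. Of these, 19 (90.5%) held CCAAT, 17 (81.0%) held a CHR and 17 (81.0%) held both, against 37.4%, 19.2% and 7.52% of all 32851 promoters in the table. For the S phase list, 22 promoters of 19 genes were found, and 8 (36.4%) held an E2F motif, against 2.26% of all promoters. For the presynaptic list, which rose, 23 promoters of 15 genes were found. Of these, 0 held the E2F motif and 1 (4.35%) held CCAAT with a CHR. That is too few promoters to tell either share from that of all promoters. A match in this window is a description of letters and no evidence of binding.

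The promoters of 4 mitotic genes are shown in lower case, 5′ to 3′ on the gene's strand, with CCAAT boxes (CCAAT, or ATTGG on the other strand) and CHR elements (TTTGAA or its complement TTCAAA) in capitals. In the Ube2c promoter, 1 CCAAT box and 1 of its complements overlap. The 4 genes were taken from those whose promoter held both motifs, by smallest adjusted p of the age change. Cdc20 is shown from chr4:118437294-118437593 (minus strand), Ube2c from chr2:164769679-164769978 (plus), Cdk1 from chr10:69352863-69353162 (minus) and Cenpf from chr1:189688037-189688336 (minus).
Cdc20: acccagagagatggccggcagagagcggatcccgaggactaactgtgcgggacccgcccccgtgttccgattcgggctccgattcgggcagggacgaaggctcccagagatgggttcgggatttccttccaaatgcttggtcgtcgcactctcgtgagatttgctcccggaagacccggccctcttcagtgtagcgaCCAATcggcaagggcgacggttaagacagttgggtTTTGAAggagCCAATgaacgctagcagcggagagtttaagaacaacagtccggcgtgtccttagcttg
Ube2c: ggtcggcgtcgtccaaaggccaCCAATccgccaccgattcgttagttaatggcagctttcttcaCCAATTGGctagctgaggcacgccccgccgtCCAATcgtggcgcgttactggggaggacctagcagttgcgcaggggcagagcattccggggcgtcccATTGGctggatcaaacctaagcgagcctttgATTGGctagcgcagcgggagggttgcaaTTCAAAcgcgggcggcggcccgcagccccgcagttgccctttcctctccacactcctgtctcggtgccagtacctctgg
Cdk1: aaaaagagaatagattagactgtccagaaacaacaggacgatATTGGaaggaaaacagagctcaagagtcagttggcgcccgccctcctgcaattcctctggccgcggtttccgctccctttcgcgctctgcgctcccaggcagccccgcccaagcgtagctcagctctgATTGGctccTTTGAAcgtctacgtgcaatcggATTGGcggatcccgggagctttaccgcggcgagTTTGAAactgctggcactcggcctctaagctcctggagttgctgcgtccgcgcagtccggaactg
Cenpf: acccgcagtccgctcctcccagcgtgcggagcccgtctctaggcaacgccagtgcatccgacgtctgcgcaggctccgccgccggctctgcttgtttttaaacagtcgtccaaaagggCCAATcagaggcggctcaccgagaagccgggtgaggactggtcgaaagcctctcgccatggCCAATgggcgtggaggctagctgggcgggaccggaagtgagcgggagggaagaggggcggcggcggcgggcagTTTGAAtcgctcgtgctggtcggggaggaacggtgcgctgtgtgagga

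In 2 S phase promoters, Mcm5 (chr8:75109259-75109558, plus strand) and Cdc6 (chr11:98907901-98908200, plus strand), the capitals mark E2F motifs. Those of Mcm5 are 2 overlapping matches on opposite strands. Both promoters were taken from the 8 of 22 that held an E2F motif, by smallest adjusted p of the age change.
Mcm5: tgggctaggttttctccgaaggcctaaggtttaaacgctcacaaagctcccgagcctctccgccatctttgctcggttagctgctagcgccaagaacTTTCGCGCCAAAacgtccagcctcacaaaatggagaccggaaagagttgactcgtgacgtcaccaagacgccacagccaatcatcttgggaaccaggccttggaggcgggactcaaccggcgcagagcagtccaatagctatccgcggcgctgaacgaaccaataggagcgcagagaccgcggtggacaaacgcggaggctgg
Cdc6: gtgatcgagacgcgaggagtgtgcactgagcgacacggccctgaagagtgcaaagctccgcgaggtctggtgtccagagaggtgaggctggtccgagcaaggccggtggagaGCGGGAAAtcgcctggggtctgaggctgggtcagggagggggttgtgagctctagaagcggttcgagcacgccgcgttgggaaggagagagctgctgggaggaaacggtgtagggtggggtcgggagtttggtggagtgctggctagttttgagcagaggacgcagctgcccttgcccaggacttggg

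Genes of the Lin28 and let-7 timing pathway, which hold stem cells in an early state, fell in part. Of 9 tested timing genes, 1 rose and 5 fell (1 and 5 without unit 1), with a median log2 fold change of -0.83. Igf2bp1, Igf2bp2 and Igf2bp3 encode mRNA-binding proteins. Igf2bp1 was at 174, 177 and 198 CPM at E13.5 and 78.1 and 86.7 CPM at E15.5 (log2 fold change -1.15 ± 0.11, adjusted p = 2.45e-06), and Igf2bp2 at 166, 205 and 187 CPM at E13.5 and 75.3 and 70.4 CPM at E15.5 (log2 fold change -1.36 ± 0.18, adjusted p = 3.31e-05). Mycn, a proto-oncogene, was the member that rose, at 114, 136 and 108 CPM at E13.5 and 199 and 198 CPM at E15.5 (log2 fold change 0.73 ± 0.11, adjusted p = 0.000135).

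Most pan-neuronal genes rose. Of 18 tested pan-neuronal genes, 11 rose and 5 fell (12 and 3 without unit 1), with a median log2 fold change of 0.79. The list's summed level was 6193, 4628 and 4150.0 CPM at E13.5 and 9053 and 8896 CPM at E15.5. Stmn2, a microtubule regulator of growing axons, was at 287, 214 and 191 CPM at E13.5 and 679.7 and 647 CPM at E15.5 (log2 fold change 1.52 ± 0.15, adjusted p = 3.57e-06). Tubb3, the neuron-specific tubulin, was at 1199.9, 1081 and 929 CPM at E13.5 and 1929 and 1947 CPM at E15.5 (log2 fold change 0.86 ± 0.10, adjusted p = 1.44e-05). Unit 1 was the E13.5 unit with the highest level of both, and the ages did not overlap. The members that fell were Neurod1, Nhlh1, Nhlh2, Slc17a6 and Slc17a7. The call of Neurod1 was lost in 4 of 14 alternatives (among them without unit 1 and without E15.5 unit 2, adjusted p up to 0.203), and that of Slc17a7 in 11 of 14 (among them without unit 1, unit 2 or either E15.5 unit, adjusted p up to 0.272). Nhlh1, a bHLH factor of cells just leaving the cycle, was at 135, 109 and 119 CPM at E13.5 and 19.2 and 24.00 CPM at E15.5 (log2 fold change -2.46 ± 0.14, adjusted p = 9.85e-08). Slc17a6, the vesicular glutamate transporter VGLUT2, was at 149, 133 and 135 CPM at E13.5 and 64.1 and 71.6 CPM at E15.5 (log2 fold change -1.03 ± 0.13, adjusted p = 2.21e-05). Tbr1, a T-box factor of deep-layer neurons, was at 460.1, 362 and 326 CPM at E13.5 and 420.2 and 424 CPM at E15.5 and did not pass (log2 fold change 0.14 ± 0.14, adjusted p = 0.444), nor did Rbfox3, the NeuN gene, at 138, 87.7 and 72.3 CPM at E13.5 and 135 and 128 CPM at E15.5.

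Most identity genes of the cortical layers rose. For layers 2 to 4, of 17 tested upper-layer genes, 13 rose and 2 fell (13 and 2 without unit 1), with a median log2 fold change of 1.42. Pou3f2 (Brn2), a POU factor needed for upper-layer production, was at 184, 162 and 180.3 CPM at E13.5 and 449 and 475 CPM at E15.5 (log2 fold change 1.40 ± 0.10, adjusted p = 4.2e-07). Mef2c, a MADS box factor, was at 20.7, 16.3 and 8.402 CPM at E13.5 and 112 and 97.4 CPM at E15.5 (log2 fold change 2.78 ± 0.26, adjusted p = 1.92e-06), and Dok5, a signaling adaptor gene, at 11.7, 9.23 and 5.66 CPM at E13.5 and 80.95 and 75.1 CPM at E15.5 (log2 fold change 3.13 ± 0.27, adjusted p = 1.27e-06). Cux1, a homeodomain factor of upper layers and their progenitors, did not pass at 249, 287 and 283 CPM at E13.5 and 282 and 299 CPM at E15.5. Plxnd1, a semaphorin receptor gene that fell, was at 283, 185 and 168 CPM at E13.5 and 57.5 and 63.3 CPM at E15.5 (log2 fold change -1.81 ± 0.19, adjusted p = 5.69e-06).

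For layer 5, of 11 tested layer 5 genes, 7 rose and 0 fell (6 and 1 without unit 1), with a median log2 fold change of 1.54. Fezf2, the factor that specifies subcerebral neurons, was at 133, 131 and 104 CPM at E13.5 and 248 and 248 CPM at E15.5 (log2 fold change 1.02 ± 0.11, adjusted p = 7.22e-06). Ldb2, a LIM domain cofactor gene, was at 17.5, 12.4 and 14.4 CPM at E13.5 and 68.1 and 66.7 CPM at E15.5 (log2 fold change 2.20 ± 0.17, adjusted p = 6.25e-07). For layer 6, of 12 tested layer 6 genes, 10 rose and 1 fell (10 and 0 without unit 1), with a median log2 fold change of 1.17. Ntsr1, a neurotensin receptor gene of corticothalamic neurons, was at 2.802, 2.17 and 1.46 CPM at E13.5 and 34.2 and 27.3 CPM at E15.5 (log2 fold change 3.81 ± 0.24, adjusted p = 1.24e-07). Nxph3, which encodes a secreted glycoprotein, was at 3.68, 3.12 and 1.28 CPM at E13.5 and 29.7 and 25.3 CPM at E15.5 (log2 fold change 3.31 ± 0.34, adjusted p = 4.23e-06). Sox5, an SRY-box factor of deep layers, was at 216, 150.0 and 113 CPM at E13.5 and 363 and 393 CPM at E15.5 (log2 fold change 1.24 ± 0.22, adjusted p = 0.000314). Among the layer 6 genes, Nfia fell by 0.36 ± 0.13 (adjusted p = 0.029), a call lost without unit 1 and without either E15.5 unit (adjusted p up to 0.138).

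Of 9 tested subplate genes, 2 rose and 5 fell (2 and 4 without unit 1), with a median log2 fold change of -0.39. Nr4a2 (Nurr1), a nuclear receptor of subplate neurons, was at 28.5, 39.4 and 39.5 CPM at E13.5 and 7.597 and 8.68 CPM at E15.5 (log2 fold change -2.12 ± 0.28, adjusted p = 3.55e-05). In control cortex it was at 24.9, 26.1 and 43.1 CPM at E13.5 and 32.2 and 30.7 CPM at E15.5, and the age changes had a difference of -2.12 ± 0.37 on the log2 scale (adjusted p = 0.0583), short of the threshold. Lpar1, a lysophosphatidic acid receptor gene, was at 45.9, 52.5 and 68.1 CPM at E13.5 and 16.1 and 16.6 CPM at E15.5 (log2 fold change -1.76 ± 0.16, adjusted p = 1.56e-06). Ctgf, another subplate gene, was at 5.96, 2.17 and 4.75 CPM at E13.5 and 5.697 and 5.89 CPM at E15.5 and did not pass. Cajal-Retzius cells, the reelin-secreting neurons of the marginal zone, arise partly outside the Emx1 lineage. Of 11 tested Cajal-Retzius genes, 1 rose and 6 fell (1 and 6 without unit 1), with a median log2 fold change of -0.65. The list's summed level overlapped between the ages, at 296.9, 309.7 and 273.1 CPM at E13.5 and 304.3 and 247.6 CPM at E15.5. Reln was at 176, 188 and 156 CPM at E13.5 and 227 and 187 CPM at E15.5, without a call (log2 fold change 0.25 ± 0.14, adjusted p = 0.158). Ebf2 and Ebf3, transcription factor genes of these cells, both fell, and Ebf3 was at 16.99, 20.1 and 19.7 CPM at E13.5 and 7.597 and 5.36 CPM at E15.5. Tbx18, which is also a gene of meningeal cells, was at 11.7, 8.01 and 14.6 CPM at E13.5 and 0.475 and 1.18 CPM at E15.5 (log2 fold change -3.57 ± 0.39, adjusted p = 7.62e-06).

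Axon guidance genes rose more often than they fell. Of 44 tested guidance genes, 24 rose and 11 fell (23 and 10 without unit 1), with a median log2 fold change of 0.41. Over all tested genes, 23.8% were called higher and 24.4% lower, so the falls stood near the share over all genes. Robo1, a Slit receptor gene, was at 137, 76.3 and 53.9 CPM at E13.5 and 381.5 and 478 CPM at E15.5 (log2 fold change 2.27 ± 0.29, adjusted p = 2.3e-05). Nrp1, a semaphorin and VEGF co-receptor gene, was at 77.1, 51.1 and 48.8 CPM at E13.5 and 294 and 269 CPM at E15.5 (log2 fold change 2.25 ± 0.20, adjusted p = 1.63e-06). Ephb1, an ephrin receptor gene, was at 12.1, 12.4 and 14.4 CPM at E13.5 and 86.4 and 87.3 CPM at E15.5 (log2 fold change 2.75 ± 0.15, adjusted p = 9.85e-08). Robo3, the receptor that lets axons cross the midline, was at 5.25, 31.2 and 16.99 CPM at E13.5 and 0 and 0 CPM at E15.5. Since no count was seen at E15.5, where 3 counts over the group set the floor, it was at least 85.9-fold lower. Sema5a, a semaphorin gene, was at 324, 316 and 334 CPM at E13.5 and 142 and 142 CPM at E15.5 (log2 fold change -1.19 ± 0.15, adjusted p = 2.34e-05), and Ntn4, a netrin gene, at 50.4, 49.02 and 53.5 CPM at E13.5 and 24.2 and 24.3 CPM at E15.5 (log2 fold change -1.07 ± 0.13, adjusted p = 2.25e-05).

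Neither synaptic list, as drawn, had a member called lower. The vesicular transporter genes Slc17a6 and Slc17a7, which fell, were counted in the pan-neuronal list. Of 23 tested presynaptic genes, 20 rose and 0 fell (20 and 0 without unit 1), with a median log2 fold change of 1.21. Cplx1, a complexin that clamps vesicle release, was at 21.02, 12.5 and 10.2 CPM at E13.5 and 86.4 and 93.2 CPM at E15.5 (log2 fold change 2.63 ± 0.23, adjusted p = 1.38e-06). Snap25, a SNARE protein gene, was at 53.2, 33.7 and 25.8 CPM at E13.5 and 146 and 140.4 CPM at E15.5 (log2 fold change 1.93 ± 0.23, adjusted p = 1.6e-05). Of 20 tested postsynaptic genes, 17 rose and 0 fell (18 and 0 without unit 1), with a median log2 fold change of 1.31. Camk2b, a kinase subunit of the postsynaptic density, was at 30.1, 28.9 and 17.2 CPM at E13.5 and 268 and 233 CPM at E15.5 (log2 fold change 3.29 ± 0.25, adjusted p = 5.94e-07). Lrrtm2, a postsynaptic adhesion gene, was at 10.3, 5.57 and 6.39 CPM at E13.5 and 61.5 and 60.96 CPM at E15.5 (log2 fold change 3.05 ± 0.21, adjusted p = 3e-07). Gphn, the gephyrin scaffold of inhibitory synapses, did not pass at 40.1, 38.4 and 40.7 CPM at E13.5 and 48.2 and 40.1 CPM at E15.5. Summed levels were 2145, 1513 and 1249 CPM at E13.5 and 3763 and 3747 CPM at E15.5 on the presynaptic and 1294, 942 and 887 CPM at E13.5 and 2562 and 2599 CPM at E15.5 on the postsynaptic side.

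Most receptor and channel genes rose. Of 18 tested glutamate receptor genes, 14 rose and 0 fell (13 and 1 without unit 1), with a median log2 fold change of 1.96. Gria2, the AMPA receptor subunit that limits calcium entry, was at 449, 343 and 291 CPM at E13.5 and 1040.0 and 1091 CPM at E15.5 (log2 fold change 1.56 ± 0.15, adjusted p = 2.16e-06). Grin2b, the NMDA receptor subunit of young neurons, was at 45.7, 19.8 and 11.1 CPM at E13.5 and 249.5 and 246 CPM at E15.5 (log2 fold change 3.28 ± 0.38, adjusted p = 1.03e-05). The obligate NMDA subunit gene Grin1 was at 9.11, 7.33 and 3.84 CPM at E13.5 and 50.1 and 55.2 CPM at E15.5 (log2 fold change 2.95 ± 0.30, adjusted p = 4.16e-06). Of 14 tested inhibitory receptor and chloride transporter genes, 13 rose and 0 fell (13 and 0 without unit 1), with a median log2 fold change of 1.84. Gabbr2, a subunit of the GABA-B receptor, was at 6.66, 4.34 and 2.19 CPM at E13.5 and 50.6 and 49.2 CPM at E15.5 (log2 fold change 3.49 ± 0.32, adjusted p = 1.73e-06). The chloride exporter gene Slc12a5 (KCC2) rose (log2 fold change 0.64 ± 0.13, adjusted p = 0.00109), while the importer Slc12a2 (NKCC1), at 53.1, 63.8 and 66.1 CPM at E13.5 and 53.7 and 55.9 CPM at E15.5, did not pass. Of 24 tested voltage-gated channel genes, 17 rose and 0 fell (20 and 0 without unit 1), with a median log2 fold change of 1.73. Kcnc1, a fast potassium channel gene, was at 33.1, 28.1 and 25.6 CPM at E13.5 and 104 and 108 CPM at E15.5 (log2 fold change 1.88 ± 0.15, adjusted p = 7.1e-07). Scn2a1, the sodium channel of early axons, was at 17.7, 10.2 and 7.49 CPM at E13.5 and 96.1 and 93.8 CPM at E15.5 (log2 fold change 3.01 ± 0.34, adjusted p = 9.36e-06).

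**Figure D2:**
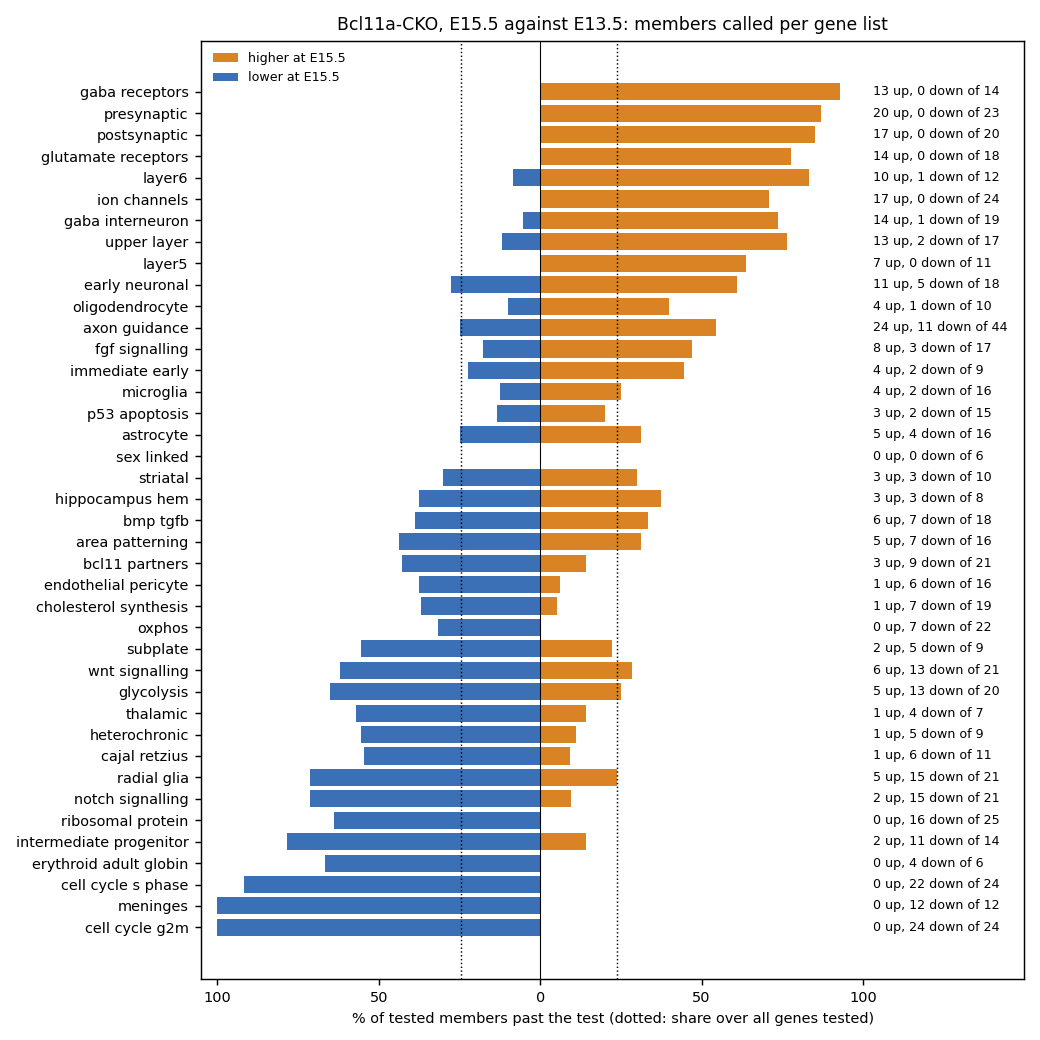
Share of the tested members of each gene list that were called higher (orange, right) or lower (blue, left) at E15.5 in Bcl11a-CKO cortex, with the counts at the right and the shares over all tested genes, 23.8% and 24.4%, as dotted lines. Synaptic, receptor and layer lists reach to the right, and both cell cycle lists and the meningeal list reach to the left.

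Among signals that pattern the cortex and sustain its progenitors, Wnt genes fell more often than they rose. Of 21 tested Wnt genes, 6 rose and 13 fell (6 and 12 without unit 1), with a median log2 fold change of -0.42. Over all tested genes, 23.8% were called higher and 24.4% lower. The Wnt rises stood near that share and the falls above it. Fzd8, a Wnt receptor gene, was at 159.6, 179 and 175 CPM at E13.5 and 54.1 and 57.2 CPM at E15.5 (log2 fold change -1.62 ± 0.14, adjusted p = 1.25e-06), and Fzd1 at 144, 133 and 127 CPM at E13.5 and 63.4 and 59.6 CPM at E15.5 (log2 fold change -1.14 ± 0.09, adjusted p = 8.31e-07). Lef1, which mediates the transcriptional response, was at 25.9, 29.5 and 37.99 CPM at E13.5 and 9.02 and 7.61 CPM at E15.5 (log2 fold change -1.92 ± 0.17, adjusted p = 1.25e-06). The secreted antagonist gene Sfrp1 was at 448, 700.5 and 716 CPM at E13.5 and 263 and 299 CPM at E15.5 (log2 fold change -1.14 ± 0.17, adjusted p = 8.39e-05). Frzb, another antagonist gene, was at 1.58, 2.44 and 2.01 CPM at E13.5 and 0 and 0 CPM at E15.5, at least 9.25-fold lower at E15.5. The ligand genes split: Wnt7a fell by 0.76 ± 0.12, and Wnt7b, a gene of deep-layer neurons, rose by 0.88 ± 0.21. The Wnt amplifier gene Rspo3 was at 11.9, 5.295 and 4.38 CPM at E13.5 and 31.6 and 34.3 CPM at E15.5 (log2 fold change 2.21 ± 0.35, adjusted p = 0.000146).

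For the BMP, FGF and area lists, too, 23.8% of all tested genes were called higher and 24.4% lower. Of 18 tested BMP and TGF-beta genes, 6 rose and 7 fell (5 and 6 of 17 without unit 1), with a median log2 fold change of -0.70. Id4, a helix-loop-helix inhibitor of neuronal differentiation, was at 292, 511 and 476 CPM at E13.5 and 61.01 and 59.5 CPM at E15.5 (log2 fold change -2.83 ± 0.21, adjusted p = 4.4e-07). Id2, its relative, was at 126, 96.3 and 63.9 CPM at E13.5 and 236 and 224 CPM at E15.5 (log2 fold change 1.26 ± 0.20, adjusted p = 0.000146). Msx1, a target gene of BMP signals in the dorsal midline, was at 5.25, 4.48 and 6.39 CPM at E13.5 and 0 and 0 CPM at E15.5, at least 23.9-fold lower at E15.5. Of 17 tested FGF genes, 8 rose and 3 fell (8 and 4 without unit 1), with a median log2 fold change of 0.44. Fgfr3, a receptor gene of progenitors, was at 124, 141 and 147 CPM at E13.5 and 40.8 and 39.7 CPM at E15.5 (log2 fold change -1.77 ± 0.16, adjusted p = 1.66e-06). The downstream genes Dusp6 and Spred2, feedback inhibitors, rose, and Dusp6 was at 14.2, 12.2 and 13.9 CPM at E13.5 and 38.2 and 35.4 CPM at E15.5 (log2 fold change 1.45 ± 0.17, adjusted p = 1.03e-05). Of 16 tested area patterning genes, 5 rose and 7 fell (6 and 7 without unit 1), with a median log2 fold change of -0.26. Dmrta2, a progenitor factor graded from medial to lateral, was at 124, 163 and 160.2 CPM at E13.5 and 47.01 and 51.1 CPM at E15.5 (log2 fold change -1.60 ± 0.16, adjusted p = 3.45e-06), and its relative Dmrt3 at 11.6, 19.3 and 16.1 CPM at E13.5 and 1.899 and 0.7499 CPM at E15.5 (log2 fold change -3.76 ± 0.34, adjusted p = 1.8e-06). Bhlhe22, an area factor of postmitotic neurons, was at 143, 76.2 and 60.8 CPM at E13.5 and 410.0 and 393 CPM at E15.5 (log2 fold change 2.10 ± 0.25, adjusted p = 1.26e-05).

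Genes of cells that do not come from the Emx1 lineage were also called. For GABAergic interneurons, of 19 tested interneuron genes, 14 rose and 1 fell (14 and 1 without unit 1), with a median log2 fold change of 1.44. The summed level was 403.5, 291 and 224.5 CPM at E13.5 and 760.4 and 794.5 CPM at E15.5. Lhx6, the factor of interneurons from the medial ganglionic eminence, was at 33.8, 13.98 and 11.1 CPM at E13.5 and 119.7 and 113 CPM at E15.5 (log2 fold change 2.57 ± 0.32, adjusted p = 2.11e-05). Npy, a neuropeptide gene, was at 2.45, 1.77 and 2.19 CPM at E13.5 and 36.1 and 29.7 CPM at E15.5 (log2 fold change 3.94 ± 0.27, adjusted p = 2.6e-07). Gad1, the GABA-synthesizing enzyme gene, was at 19.8, 7.74 and 6.76 CPM at E13.5 and 41.1 and 38.03 CPM at E15.5 (log2 fold change 1.80 ± 0.35, adjusted p = 0.000829). E13.5 unit 1 was the highest of its age for Lhx6 and Gad1. Striatal and thalamic genes would mark tissue beneath the cortex. Calls in both lists are read against 23.8% of all tested genes called higher and 24.4% called lower. Of 10 tested striatal genes, 3 rose and 3 fell (3 and 3 without unit 1), with a median log2 fold change of -0.10. Of 7 tested thalamic genes, 1 rose and 4 fell (0 and 4 without unit 1), with a median log2 fold change of -1.03.

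All tested meningeal genes fell. Of 12 tested meningeal genes, 0 rose and 12 fell (0 and 11 without unit 1), with a median log2 fold change of -4.49. The summed level of the 13 listed genes was 672, 606 and 814 CPM at E13.5 and 76.9 and 91.1 CPM at E15.5, and in control units 680.0, 623 and 636 CPM at E13.5 and 83.7 and 70.2 CPM at E15.5. Col3a1 was at 213, 184 and 338 CPM at E13.5 and 6.17 and 5.79 CPM at E15.5 (log2 fold change -5.36 ± 0.33, adjusted p = 1.2e-07). Cxcl12, the chemokine by which meninges guide Cajal-Retzius cells and interneurons, was at 83.4, 106 and 65.2 CPM at E13.5 and 15.2 and 24.5 CPM at E15.5 (log2 fold change -2.06 ± 0.21, adjusted p = 4.61e-06). Lum, a matrix proteoglycan gene, had 364 counts over the E13.5 group and 2 over the E15.5 group, a ratio of 133 with a 95% interval of 36.5 to 1100 (exact binomial, counting error only). How much meninx each dissection left on the cortex is not given in the sources used here, and its part in other results was not tested. Choroid plexus genes were near 0 throughout, at 4.03, 4.34 and 3.65 CPM at E13.5 and 0.9496 and 1.18 CPM at E15.5 summed over 9 genes. Of these, 1 was tested and fell (0 rose and 1 fell without unit 1), and the defining marker Ttr had 0 counts in all Bcl11a-CKO units.

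Blood and vessel genes fell in part. The 3 tested embryonic globin genes, which are used by red cells of the yolk sac, fell (0 rose and 3 fell without unit 1), with a summed level of 802, 662 and 1229 CPM at E13.5 and 6.17 and 8.999 CPM at E15.5 over 5 listed genes. Of 6 tested adult red cell genes, 0 rose and 4 fell (0 and 3 without unit 1), with a median log2 fold change of -0.97. Of 16 tested endothelial and pericyte genes, 1 rose, 6 fell and 9 did not pass (3 rose and 5 fell without unit 1). The median log2 fold change was -0.20, and -0.05 without unit 1. Summed over the 17 listed genes, the level was 563.6, 425.1 and 537.9 CPM at E13.5 and 365.1 and 378.8 CPM at E15.5. Cdh5, the adhesion protein of endothelial junctions, was at 50.8, 38.3 and 53.1 CPM at E13.5 and 17.1 and 17.5 CPM at E15.5 (log2 fold change -1.45 ± 0.19, adjusted p = 2.99e-05), and Slc2a1, the glucose transporter gene of the blood-brain barrier, at 139, 119 and 136 CPM at E13.5 and 71.5 and 71.7 CPM at E15.5 (log2 fold change -0.88 ± 0.09, adjusted p = 4e-06). Of 16 tested microglial and macrophage genes, 4 rose and 2 fell (6 and 1 without unit 1), with a median log2 fold change of 0.48. Over all tested genes, 23.8% were called higher and 24.4% lower, so these microglial counts stood near or below those shares. Mrc1, a gene of macrophages at the brain's borders, was at 13.5, 5.16 and 10.6 CPM at E13.5 and 0.712 and 1.39 CPM at E15.5 (log2 fold change -3.03 ± 0.58, adjusted p = 0.000624), while the microglial receptor gene P2ry12 was at 4.204, 4.75 and 4.201 CPM at E13.5 and 8.31 and 9.21 CPM at E15.5 (log2 fold change 1.00 ± 0.23, adjusted p = 0.00261).

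Glial lineage counts are read against 23.8% of all tested genes called higher and 24.4% called lower. Of 16 tested astrocyte genes, 5 rose and 4 fell (6 and 3 without unit 1), with a median log2 fold change of 0.31. Aldh1l1, a folate enzyme gene of astrocytes, was at 7.53, 2.85 and 1.83 CPM at E13.5 and 47.5 and 38.03 CPM at E15.5 (log2 fold change 3.39 ± 0.38, adjusted p = 8.29e-06). Gja1, the connexin 43 gene of radial glia and astrocytes, was at 66.03, 90.97 and 105 CPM at E13.5 and 9.97 and 13.1 CPM at E15.5 (log2 fold change -2.89 ± 0.21, adjusted p = 4.56e-07). Of 10 tested oligodendrocyte lineage genes, 4 rose, 1 fell and 5 did not pass (5 rose and 1 fell without unit 1), with a median log2 fold change of 0.52. Summed over the 11 listed genes, the level was 49.57, 51.05 and 62.28 CPM at E13.5 and 65.28 and 65.67 CPM at E15.5. Olig1, a bHLH factor of oligodendrocyte precursors, had 1 count over the E13.5 group and 95 over the E15.5 group, a ratio of 130 with a 95% interval of 22.8 to 5190 (exact binomial). Gpr17, a receptor gene of committed precursors, had 0 counts at E13.5 and 57 at E15.5, at least 26.0-fold higher. Sox10, with 0 and 26 counts, was at least 11.9-fold higher.

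**Figure D3:**
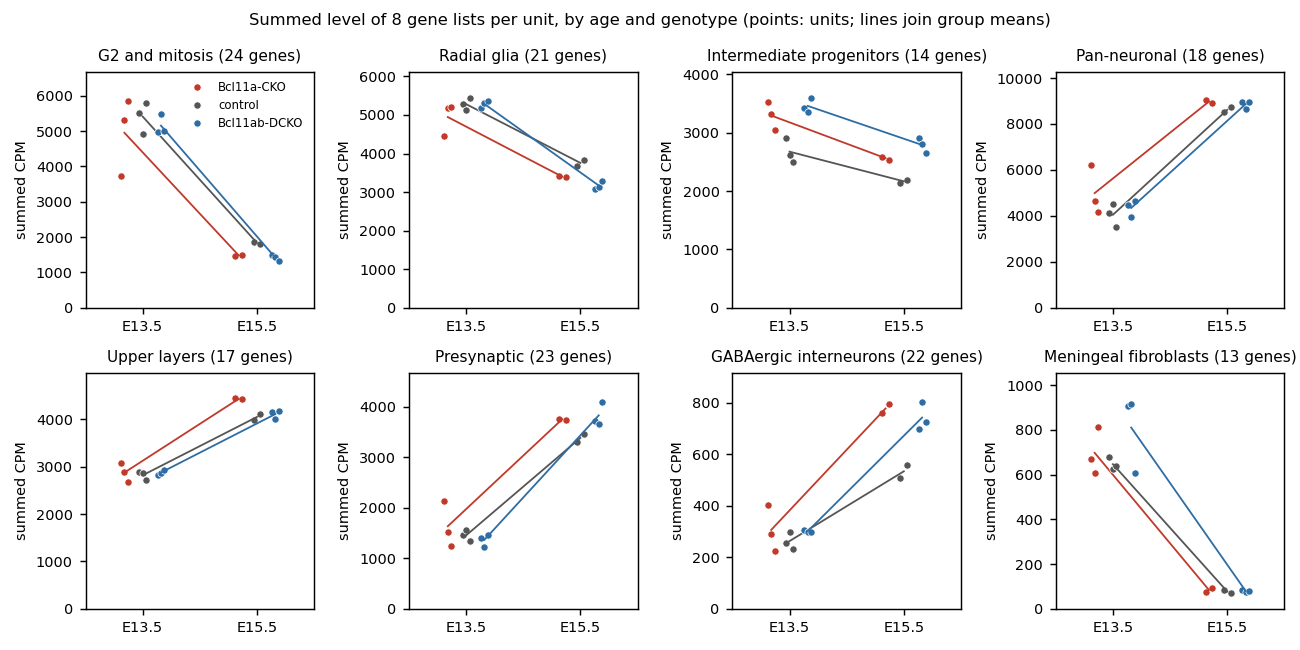
Summed CPM of 8 gene lists in every unit at E13.5 and E15.5 (red, Bcl11a-CKO; gray, control; blue, Bcl11ab-DCKO; lines join group means; axes start at 0). In Bcl11a-CKO, mitotic genes go from 3720, 5303 and 5843 CPM to 1469 and 1498 CPM, and interneuron genes from 404, 291 and 225 CPM to 760.4 and 794.5 CPM.

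More metabolic genes fell than rose, read against 23.8% of all tested genes called higher and 24.4% called lower. Of 20 tested glycolytic genes, 5 rose and 13 fell (5 and 13 without unit 1), with a median log2 fold change of -0.53. Pgk1, phosphoglycerate kinase, was at 315, 391 and 372 CPM at E13.5 and 163 and 175 CPM at E15.5 (log2 fold change -1.09 ± 0.09, adjusted p = 9.27e-07), and Pkm, pyruvate kinase, at 1389, 1768 and 1715 CPM at E13.5 and 927 and 951 CPM at E15.5 (log2 fold change -0.79 ± 0.09, adjusted p = 1.11e-05). The members that rose were Eno2, Hk1, Pfkm, Pfkp and Slc2a3. Eno2, neuronal enolase, was at 17.7, 17.7 and 15.7 CPM at E13.5 and 40.8 and 45.7 CPM at E15.5 (log2 fold change 1.35 ± 0.16, adjusted p = 1.21e-05), and Pfkp, a phosphofructokinase subunit, at 35.03, 22.3 and 17.9 CPM at E13.5 and 125 and 119 CPM at E15.5 (log2 fold change 2.28 ± 0.24, adjusted p = 4.74e-06). Of 22 tested oxidative phosphorylation genes, 0 rose, 7 fell and 15 did not pass (0 rose and 8 fell without unit 1). Their median log2 fold change was -0.19. Of 25 tested ribosomal protein genes, 0 rose and 16 fell (0 and 18 without unit 1), with a median log2 fold change of -0.40. Rpl4 was at 1028, 1107 and 1108 CPM at E13.5 and 799 and 805 CPM at E15.5 (log2 fold change -0.43 ± 0.06, adjusted p = 7.62e-05). Ribosomal protein genes have many processed pseudogenes, so their counts are uncertain. Of 19 tested cholesterol synthesis genes, 1 rose, 7 fell and 11 did not pass (1 rose and 7 fell without unit 1). Their median log2 fold change was -0.12.

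Calls among stress and cell death genes are read against the same 23.8% and 24.4%. Of 15 tested p53 and apoptosis genes, 3 rose and 2 fell (5 and 2 without unit 1), with a median log2 fold change of 0.15. Bbc3 (PUMA), a proapoptotic gene, was at 11.2, 7.196 and 10.2 CPM at E13.5 and 21.6 and 23.1 CPM at E15.5 (log2 fold change 1.24 ± 0.22, adjusted p = 0.000303). Of 9 tested immediate early genes, 4 rose and 2 fell (3 and 2 without unit 1), with a median log2 fold change of 0.21. Jun was at 191, 205 and 205 CPM at E13.5 and 101 and 93.3 CPM at E15.5 (log2 fold change -1.04 ± 0.08, adjusted p = 7.42e-07), and Nr4a3, a nuclear receptor gene induced by activity, at 16.8, 9.504 and 2.56 CPM at E13.5 and 80.00 and 80.7 CPM at E15.5 (log2 fold change 3.05 ± 0.41, adjusted p = 3.79e-05). Of 21 tested Bcl11 partner genes, 3 rose and 9 fell (3 and 9 without unit 1), with a median log2 fold change of -0.18. Among these partners, Chd4, the NuRD helicase gene, was at 823, 858 and 883 CPM at E13.5 and 613 and 645 CPM at E15.5 (log2 fold change -0.44 ± 0.07, adjusted p = 0.000137). Smarcc2, a BAF subunit gene, was at 833, 724 and 671 CPM at E13.5 and 979 and 1014 CPM at E15.5 (log2 fold change 0.42 ± 0.08, adjusted p = 0.000835), and its paralog Smarcc1, a subunit that prevails in progenitors, at 372, 422 and 416 CPM at E13.5 and 301 and 318 CPM at E15.5 (log2 fold change -0.38 ± 0.07, adjusted p = 0.000336).

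The same age comparison in control cortex shares no sample with the mutant one. Both came from 1 model with the same gene filter and the same estimate of spread, so their calls are not fully independent. The control comparison called 3625 genes higher and 3551 lower (48.0% of 14947). Of the 7195 genes called in Bcl11a-CKO, 5646 were called in the same direction in control, which is 78.5% of the mutant and 78.7% of the control calls, and 6 were called in opposite directions. Across the 14947 genes, which are not independent replicates, Pearson's r between the 2 sets of log2 fold changes was 0.837. List medians were -1.70 in Bcl11a-CKO and -1.55 in control for G2 and mitosis, 1.21 in Bcl11a-CKO and 1.45 in control for the presynaptic list and 1.17 in Bcl11a-CKO and 1.60 in control for layer 6.

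**Figure D4:**
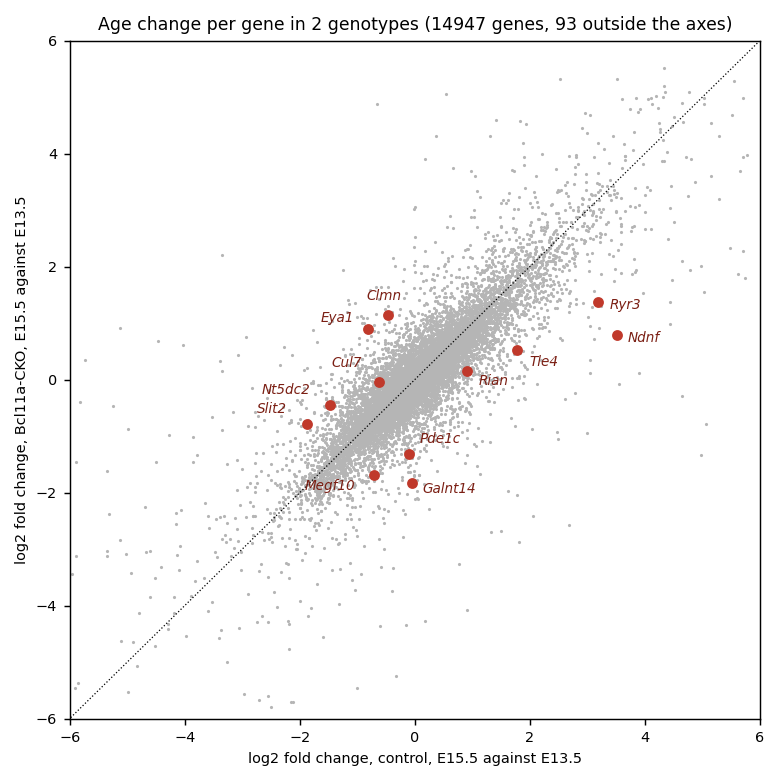
Log2 fold change from E13.5 to E15.5 of each tested gene (gray points) in control (x axis) and Bcl11a-CKO (y axis), with the line of equal change dotted; 93 of 14947 genes lie outside the axes. The 12 genes whose age change differed (red, named) lie off the line, with Ryr3, Ndnf and Tle4 below it at the right and Eya1 and Clmn above it.

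The difference between the 2 age changes was itself tested, and 12 genes passed (0.0803% of 14947), 5 with a higher (0.0335%) and 7 with a lower (0.0468%) change in the mutant. At an unadjusted p under 0.05, 1174 genes passed, and DESeq2 called 64, all 12 among them. The count was 19 without Bcl11a-CKO E13.5 unit 1 (11 of the 12 shared), 6 without its unit 3, 4 without control E15.5 unit 1, 2 without Bcl11a-CKO E15.5 unit 1 and 5 without the summed pair. Only Nt5dc2 and Ryr3 kept their call under all 19 alternatives run.

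In 4 genes that rose in control cortex, the fitted change was smaller in the mutant. Tle4, a Groucho corepressor of layer 6 neurons, was at 53.2, 69.9 and 70.7 CPM at E13.5 and 97.6 and 89.9 CPM at E15.5 in Bcl11a-CKO and 69.3, 53.4 and 60.1 CPM at E13.5 and 188 and 231 CPM at E15.5 in control. The genotypes overlapped at E13.5 and did not at E15.5, with a difference of -1.25 ± 0.19 on the log2 scale (adjusted p = 0.026). Ndnf, a secreted factor of Cajal-Retzius cells and layer 1 neurons, was at 5.96, 3.802 and 6.39 CPM at E13.5 and 11.4 and 7.499 CPM at E15.5 in the mutant and 1.75, 2.83 and 2.27 CPM at E13.5 and 23.6 and 28.7 CPM at E15.5 in control, a difference of -2.72 ± 0.41 on the log2 scale (adjusted p = 0.0253). Ryr3, an intracellular calcium channel gene, was at 45.5, 40.9 and 39.6 CPM at E13.5 and 116 and 103 CPM at E15.5 against 14.8, 14.5 and 14.5 CPM at E13.5 and 137 and 131 CPM at E15.5, a difference of -1.82 ± 0.21 on the log2 scale (adjusted p = 0.00321). All mutant units were above control at E13.5 and below it at E15.5. The rise of Ndnf within the mutant lost its call in 5 of 14 alternatives, among them without E13.5 unit 2 and without E15.5 unit 1 (adjusted p up to 0.237). Rian, a maternally expressed noncoding RNA of the imprinted Dlk1-Dio3 region, was at 117, 125 and 133 CPM at E13.5 and 142 and 136 CPM at E15.5, without a call within the mutant, against 101, 101 and 97.3 CPM at E13.5 and 181 and 195 CPM at E15.5, a difference of -0.76 ± 0.10 on the log2 scale (adjusted p = 0.0119).

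In 3 further genes the mutant fell, while control fell less (Megf10) or was not called (Galnt14 and Pde1c). Megf10, an engulfment receptor gene of astrocytes and radial glia, was at 108, 105 and 128 CPM at E13.5 and 35.8 and 34.5 CPM at E15.5 against 100.3, 109 and 115 CPM at E13.5 and 67.7 and 63.7 CPM at E15.5, a difference of -0.98 ± 0.13 on the log2 scale (adjusted p = 0.0119). Galnt14, a glycosyltransferase gene, was at 11.6, 12.1 and 12.2 CPM at E13.5 and 3.798 and 3.11 CPM at E15.5 against 7.01, 5.099 and 6.42 CPM at E13.5 and 5.804 and 6.09 CPM at E15.5, a difference of -1.77 ± 0.25 on the log2 scale (adjusted p = 0.0122). Pde1c, a calcium-dependent phosphodiesterase gene, was at 50.6, 47.9 and 55.2 CPM at E13.5 and 21.1 and 20.03 CPM at E15.5 against 27.5, 27.4 and 26.6 CPM at E13.5 and 29.6 and 21.3 CPM at E15.5, a difference of -1.21 ± 0.20 on the log2 scale (adjusted p = 0.0359). For Galnt14 and Pde1c, all mutant units were above control at E13.5 and below it at E15.5.

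In the other 5 genes, the fitted age change was higher in the mutant than in control. Nt5dc2, a gene of a nucleotidase family, was at 245, 292 and 270.5 CPM at E13.5 and 193 and 204 CPM at E15.5 against 269, 247 and 274 CPM at E13.5 and 94.7 and 95.8 CPM at E15.5, a difference of 1.03 ± 0.11 on the log2 scale (adjusted p = 0.00321). Slit2, a repulsive guidance ligand gene, was at 37.8, 42.2 and 42.7 CPM at E13.5 and 25.4 and 22.5 CPM at E15.5 against 36.2, 40.2 and 44.96 CPM at E13.5 and 10.8 and 11.2 CPM at E15.5, a difference of 1.09 ± 0.15 on the log2 scale (adjusted p = 0.0119). Cul7, a cullin ubiquitin ligase gene, was at 176, 187 and 181 CPM at E13.5 and 171 and 183 CPM at E15.5 against 179, 181 and 195 CPM at E13.5 and 122.5 and 117 CPM at E15.5, a difference of 0.59 ± 0.09 on the log2 scale (adjusted p = 0.0322). Clmn, a calponin-like membrane protein gene, was at 6.48, 7.33 and 6.39 CPM at E13.5 and 16.6 and 13.7 CPM at E15.5 against 9.35, 9.44 and 10.96 CPM at E13.5 and 6.81 and 7.49 CPM at E15.5, a difference of 1.61 ± 0.26 on the log2 scale (adjusted p = 0.0359). Eya1, a phosphatase and transcriptional coactivator gene, was at 5.25, 3.94 and 4.75 CPM at E13.5 and 9.73 and 7.71 CPM at E15.5 against 11.5, 13.4 and 11.5 CPM at E13.5 and 5.204 and 8.196 CPM at E15.5, a difference of 1.71 ± 0.29 on the log2 scale (adjusted p = 0.049998). Eya1 rose in Bcl11a-CKO and fell in control, each past its own test. Its genotypes overlapped at E15.5, while all mutant units lay below control at E13.5.

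**Figure D5:**
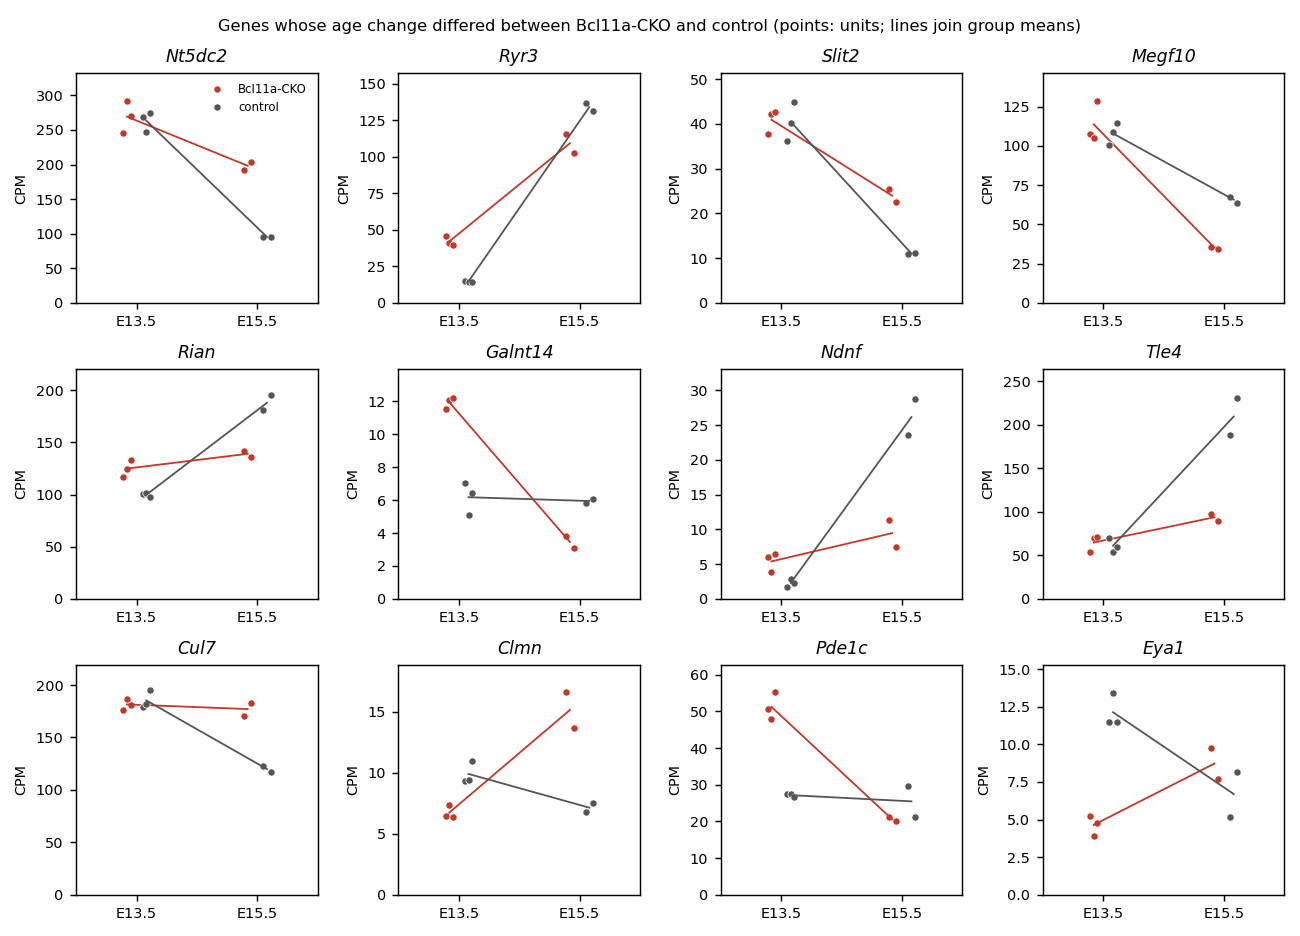
CPM per unit of the 12 genes whose age change differed between Bcl11a-CKO (red) and control (gray), with axes from 0 and lines joining group means. Nt5dc2 ends near 95 CPM in both control units at E15.5 and at 193 and 204 CPM in the mutant units; Tle4 and Ndnf end higher in control.

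Promoters were found for 8 of these 12 genes, 12 promoters in all, and 1 (8.33%) held TGACCA, the motif reported for Bcl11a binding at globin genes, on either strand, against 13.6% of all promoters. No binding data were used here.

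The double mutant comparison shares the Bcl11a-CKO units with the one before, so the 2 are not independent. The age change differed between Bcl11a-CKO and Bcl11ab-DCKO for 216 genes (1.45% of 14947), with 95 higher (0.636%) and 121 lower (0.81%) in Bcl11a-CKO. The age comparison within Bcl11ab-DCKO called 54.8% of genes, 27.7% higher and 27.2% lower. Ephb1 rose in Bcl11a-CKO, from a mean of 12.96 to 86.9 CPM, and went from 32.8 to 11.9 CPM in Bcl11ab-DCKO, a difference of 4.21 ± 0.21 (adjusted p = 1.08e-07). Slit2 went from a mean of 40.9 to 23.9 CPM in Bcl11a-CKO and from 46.7 to 119 CPM in Bcl11ab-DCKO, a difference of -2.13 ± 0.13 (adjusted p = 1.55e-06). Slit2 fell with age in control and Bcl11a-CKO and rose in Bcl11ab-DCKO, and Ephb1 fell in Bcl11ab-DCKO. Of cortical identity genes, Fezf2 went from 122 to 248 CPM and from 97.7 to 95.9 CPM, a difference of 1.04 ± 0.15 (adjusted p = 0.00235). Rorb, a nuclear receptor of layer 4, went from 7.49 to 28.6 CPM and from 7.997 to 7.55 CPM, a difference of 2.03 ± 0.34 (adjusted p = 0.00568). Tle4 went from 64.6 to 93.7 CPM and from 66.1 to 38.9 CPM, a difference of 1.298 ± 0.19 (adjusted p = 0.00206).

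Counts of calls in this contrast fell by over 1.5 times without 4 units: to 116 without Bcl11a-CKO E15.5 unit 1, 99 without the summed pair, 133 without Bcl11ab-DCKO E13.5 unit 2 and 128 without Bcl11ab-DCKO E15.5 unit 2. Plexin genes Plxna2, Plxna4 and Plxnd1 and semaphorin genes Sema3c and Sema6d had a lower change in Bcl11a-CKO than in Bcl11ab-DCKO, and Plxna1 a higher one. Sema6d went from 242 to 118 CPM in Bcl11a-CKO and from 124 to 193 CPM in Bcl11ab-DCKO, a difference of -1.67 ± 0.38 (adjusted p = 0.0452). Of the 44 axon guidance genes tested, 3 higher and 9 lower in Bcl11a-CKO passed this test.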

How the data were processed

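Bulk RNA-seq of embryonic cortex was read from a gene table of 34745 genes and 18 libraries of raw counts, deposited by the authors. HISAT2 2.0.4, StringTie 1.3.0, edgeR and mm10 are named per the submitters' processing notes, while counting settings and strandedness are not stated. Library totals ran from 4313142 to 7220708 counts, and 0 columns lacked a sample. Libraries that share a title number and carry R and L were summed, which left 16 units. No 2 libraries of a Bcl11a-CKO group held identical counts, and the mean chi-square per gene was 3.82 for the summed pair and 5.32 to 15.13 for the others.

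Counts were tested with edgeR 4.0.16 (R 4.3.3; quasi-likelihood test, TMM, filterByExpr) in 1 model of 6 groups over 14947 genes, with Benjamini-Hochberg adjustment and a threshold of 0.05. The common biological coefficient of variation was 0.139, with 10 residual degrees of freedom. The differences of the age change were contrasts of the same model. Scripts were tested on simulated data. A fold against a group at 0 used a floor of 3 counts over the group, and ratios with 1 to 3 counts carry exact 95% binomial intervals. Intervals and floors cover counting error only. Alternatives were RLE size factors, no filter on low counts, libraries kept separate, R or L alone, only the groups compared, each unit left out, DESeq2 1.42.0 and, added after seeing the data, a term for the title ending 1-2. Gene positions came from GENCODE (34267 of 34745 IDs found, 40.8% of tested genes sharing exonic bases) and promoters from RefSeq (GRCm38.p6).

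Named genes were the floxed genes; the 12 largest rises and 12 largest falls among called genes with at least 5 CPM in the higher group, 10 counts in the lower group and no overlap; the 5 with the largest CPM change each way; up to 5 called members per list with at least 5 CPM; and, for differences, the 10 smallest adjusted p each way and called list members. Some genes that met the rule are not reported here. Other named genes were chosen after their values were seen. The members and lists were chosen with earlier results of these data known.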

Additional observations from a re-analysis of the deposited data

Results flagged for a closer look

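A test of the difference between age changes singled out 12 genes for Bcl11a-CKO against control. Differences are given as the log2 age change in Bcl11a-CKO minus that in the other genotype. The genes with a higher change in Bcl11a-CKO were Eya1 (1.71), Clmn (1.61), Slit2 (1.09), Nt5dc2 (1.03) and Cul7 (0.6). Those with a lower change were Rian (-0.76), Megf10 (-0.98), Pde1c (-1.21), Tle4 (-1.25), Galnt14 (-1.77), Ryr3 (-1.82) and Ndnf (-2.72). Of the 12, 10 lost their call under at least 1 of 19 alternatives.

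The same test against Bcl11ab-DCKO singled out 216 genes, of which 51 were picked by smallest adjusted p or as members of a list. The axon guidance genes with a higher change were Ephb1 (4.21), Dcc (0.79) and Plxna1 (0.56). The axon guidance genes with a lower change were Efnb2 (-0.45), Plxna2 (-0.96), Unc5b (-1.16), Plxnd1 (-1.19), Plxna4 (-1.24), Sema3c (-1.38), Flrt2 (-1.42), Sema6d (-1.67) and Slit2 (-2.13). The cortical layer genes with a higher change were Lpl (2.34), Rorb (2.03), Zfpm2 (1.93), Oma1 (1.38), Tle4 (1.3) and Fezf2 (1.04). The cortical layer genes with a lower change were Pou3f1 (-1.77) and Pcp4 (-2.35). The radial glia and signaling genes with a higher change were Dusp6 (2.03), Ptprz1 (0.78) and Notch1 (0.49). Of the radial glia and signaling genes, Fgfr1 (-0.49) had a lower change. The synaptic and channel genes with a lower change were Syn2 (-1.4), Scn1a (-2.29) and Kcnq3 (-2.55). Among members of other lists, those with a higher change were Cdh6 (1.17), Foxp1 (1.16), Vtn (0.93) and Gpi1 (0.7). Among members of other lists, those with a lower change were Meis2 (-0.71). Among genes of no list, those with a higher change were Igfbp3 (2.84), Kctd12 (2.46), Lnx2 (2.35), 4833422C13Rik (2.3), Kif26a (2.19), Ssbp2 (2.06), Nin (2.01), Rprm (1.58) and Neto2 (1.27). Among genes of no list, those with a lower change were Dusp4 (-1.11), Tbc1d4 (-1.18), Slc35b4 (-1.38), Pde1c (-1.67), Myo1e (-1.68), Igsf10 (-1.69), Galnt14 (-2.3), St6galnac5 (-3.0) and Map3k5 (-4.25). Of the 51, 27 kept their call under all 20 alternatives run. Each value rests on 2 Bcl11a-CKO units at E15.5. Of the genes in these lists, 4833422C13Rik, Ephb1, Fgfr1, Foxp1, Galnt14, Gpi1, Igsf10, Kctd12, Neto2, Nin, Notch1, Nt5dc2, Pcp4, Plxna1, Plxna4, Pou3f1, Rian, Ryr3, Slc35b4, Ssbp2, St6galnac5 and Syn2 share exonic bases with another gene, so their values are uncertain. 4833422C13Rik is antisense to Ssbp2 and shares exonic bases with it, so their counts may hold the same reads and the pair is not 2 separate results.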

How the results depend on the processing

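No paired analysis was possible because the numbers in the titles are shared too rarely: the 2 ages of each genotype share 1 number, and the genotypes share 0 at either age. The ending 1-2 recurs in 1 E13.5 library of each genotype. With a term for it, chosen after seeing the data, 7401 genes were called between the ages in Bcl11a-CKO, 10 differed from control and 262 from Bcl11ab-DCKO. The Bcl11a-CKO age count stayed within 1.5 times of 7195 under all alternatives run: 5351 to 7613 genes when 1 unit was left out, and 5414 (only the groups compared) to 7740 (18 libraries as separate samples) otherwise. Of 483 named or listed genes called in it, 381 kept their call in every alternative. Cul7, at -0.03 and without a call, changed sign without Bcl11a-CKO E15.5 replicate 1 (0.032), and the range when 1 unit was left out was -0.078 to 0.032; the cause was not tested. The number of genes differing from control, 12, was 52 with 18 libraries as separate samples, 20 with the R library of each pair alone, 4 with only the groups compared, 20 without the E13.5 libraries whose titles end in 1-2, 64 with DESeq2, and 2 to 19 when 1 unit was left out. The number differing from Bcl11ab-DCKO, 216, was 336 with 18 libraries as separate samples, 133 with only the groups compared, 336 with DESeq2, and 99 to 275 when 1 unit was left out. Why these counts moved was not tested. Settings that left 1 unit out changed both the number of units and the units used, and these were not separated. Leaving out an E15.5 unit of Bcl11a-CKO left 1 unit, assumed to vary like the other groups. Of 34745 genes, 14947 had enough counts to be tested.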

Other observations

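Of the genes called in both genotypes, 6 went in opposite directions with age, a set chosen after its values were seen. Cyfip2, a regulator of actin at synapses, went from a mean of 526 to 424.5 CPM in Bcl11a-CKO and from 231 to 299 CPM in control, with log2 changes of -0.31 ± 0.09 and 0.37 ± 0.09. The noncoding RNA Pantr1 went from 71.5 to 52.98 CPM in Bcl11a-CKO and from 50.9 to 65.0 CPM in control. Stc2, a secreted glycoprotein gene, went from 2.47 to 5.74 CPM in Bcl11a-CKO and from 6.28 to 2.68 CPM in control. Esrrg, an orphan nuclear receptor gene, and Gdf5, a BMP family ligand gene, were lower at E15.5 in Bcl11a-CKO and higher in control, both below 5 CPM in all 4 groups. The call within the mutant was lost in 9 of 14 alternatives for Esrrg, 7 of 13 for Gdf5 and 4 of 14 for Cyfip2. For Eya1 it was kept in all 14. In control, Pantr1 and Esrrg lay close to the threshold (adjusted p = 0.0489 and 0.046). Eya1 was the only one of the 6 to pass the test of the difference itself, a call lost in 13 of 19 alternatives. Gdf5 shares exonic bases with another gene, so its values are uncertain. For the other 5, the adjusted p of that difference lay between 0.098 (Cyfip2) and 0.25 (Esrrg).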
